A study of Homo sapiens with 16 samples.

Results

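The genes described here are the Hippo pathway coactivators YAP1 and WWTR1 (the gene for TAZ), the DNA-binding factors TEAD1 and TEAD4, and the target genes CCN1 (formerly CYR61), CCN2 (formerly CTGF), ANKRD1, AMOTL2, AJUBA and LATS2. They were chosen by name as the coactivators, factors and common targets of the pathway, and are 10 of 58302 gene identifiers in the expression table; 9 of the 10 passed the filter on low values. The study transfected bladder cancer cell lines with an siRNA against NAT10, the enzyme that makes N4-acetylcytidine (ac4C) in RNA. The data used here came from UM-UC-3, an established human bladder cancer line. The control group was UM-UC-3 given a negative control siRNA and the treated group (NAT10-si) was UM-UC-3 given the NAT10 siRNA, both at 75 nM with a lipid reagent for 48 h. RNA-seq was available for replicates 2 and 3 of each group. Peak lists from immunoprecipitation of ac4C-containing RNA (acRIP) were available for each group, 1 from a first round and 1 from a replicate round. The remaining libraries of the series, the T24 cells included, were not analysed here. A single siRNA sequence stood for each arm, so any activity of the NAT10 siRNA on other transcripts cannot be told apart from loss of NAT10. The 2 sequences are shown because they define the arms, in lower case with the 3′ overhang in capitals.

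NAT10 siRNA: ccaucucucgcaucuauuuTT
Control siRNA: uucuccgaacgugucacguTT

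The Hippo pathway is a kinase cascade in which STK3 and STK4 (MST kinases), with SAV1, activate LATS1 and LATS2, with MOB1 proteins. LATS kinases phosphorylate YAP and TAZ and keep them out of the nucleus. Unphosphorylated YAP and TAZ bind TEAD factors and switch on genes of growth, matrix and cytoskeleton, several of which (AMOTL2, LATS2, AJUBA) feed back on the pathway. YAP and TAZ activity is set mainly by phosphorylation and location of the proteins, which RNA levels do not measure.

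Values are FPKM, read fragments scaled to gene length and library size, so levels can be set side by side between genes. Changes are differences of log2(FPKM + 1), NAT10-si minus control, with limma adjusted p-values over all 14004 genes tested. The 4 libraries held between 16967988 and 35046617 recovered reads, control replicate 2 being the deepest. NAT10 stood at 19.0 and 17.6 FPKM in control replicates 2 and 3 and at 4.04 and 3.84 FPKM in the NAT10-si replicates, in the direction of the labels (log2 change -1.97, limma adjusted p = 0.00011). Markers of the labelled tissue were uneven. Of 7 luminal urothelial markers 2 (UPK2 and PPARG) averaged at least 1 FPKM, UPK3A was listed at 0 in all 4 libraries, and the list summed to between 4.21 and 4.31 FPKM in controls and between 5.24 and 5.9 FPKM in NAT10-si. Of 5 epithelial markers 3 (KRT7, KRT8, KRT18) averaged at least 1 FPKM, with EPCAM and CDH1 near 0, and the list summed to between 113 and 114 FPKM in controls and between 80.6 and 82.5 FPKM in NAT10-si. KRT18 made up most of that sum and fell from a mean of 85.8 to 53.3 FPKM. KRT7 rose from 1.69 to 3.35 FPKM, and KRT8 (26.0 and 24.4 FPKM) did not pass the test. The 3 mesenchymal markers (VIM, CDH2, ZEB1) summed to between 676 and 694 FPKM in controls and between 483 and 508 FPKM in NAT10-si. Nearly all of that sum was VIM, which fell from a mean of 663 to 471 FPKM. ZEB1 rose from 13.7 to 16.9 FPKM, and CDH2 (8.46 and 8.13 FPKM) did not pass, so these markers did not move together. Summed over each list, 6 fibroblast markers reached at most 2.62 FPKM and 4 endothelial markers at most 0.835 FPKM in any library. PTPRC, the pan-leukocyte marker, was listed at 0 in all 4 libraries. The 6 immune markers summed to between 0.882 and 1.54 FPKM in controls and between 10.2 and 25.5 FPKM in NAT10-si. The immunoglobulin gene IGKC had 20.5 FPKM in NAT10-si replicate 2 and 5.56 FPKM in replicate 3, against 0.575 and 0 FPKM in the controls. JCHAIN, also on the immune list, had 1.19 and 0.3 FPKM, against 0.0163 and 0 FPKM. LCP1, an actin-bundling protein, had 3.70 and 4.02 FPKM, against 0.837 and 0.848 FPKM in the controls. CD79A and CD3E reached at most 0.298 and 0.0371 FPKM, with overlapping arms. NAT10-si replicate 2 was thus the higher of the treated libraries for IGKC, as it was for KRT20 (0.686 against 0.121 FPKM) and EPCAM (0.755 against 0.0888 FPKM). Without that library the log2 changes of the genes called below kept their directions. Replicate 3, the treated library then left, also held IGKC and LCP1 above both controls. Leaving out replicate 2 thus does not remove those differences. The part of these marker differences in the results below was not tested.

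YAP1, TEAD1, TEAD4, AMOTL2 and AJUBA fell after NAT10 siRNA, WWTR1 and CCN1 rose, and CCN2 and LATS2 did not pass the test. Thus 2 of 9 tested genes rose, against 27.9% of all genes tested, and 5 of 9 fell, against 27.9%. The libraries of the 2 arms did not overlap for 3 of the 9 on the higher side (40.4% of all genes) and for 5 on the lower side (40.1%). Their median log2 change was -0.24, against 0.01 over all genes tested. In bulk RNA, fewer cells expressing a gene and less RNA per cell cannot be told apart. With 55.8% of all genes called in either direction, a call on its own does not set these genes apart.

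**Figure D1:**
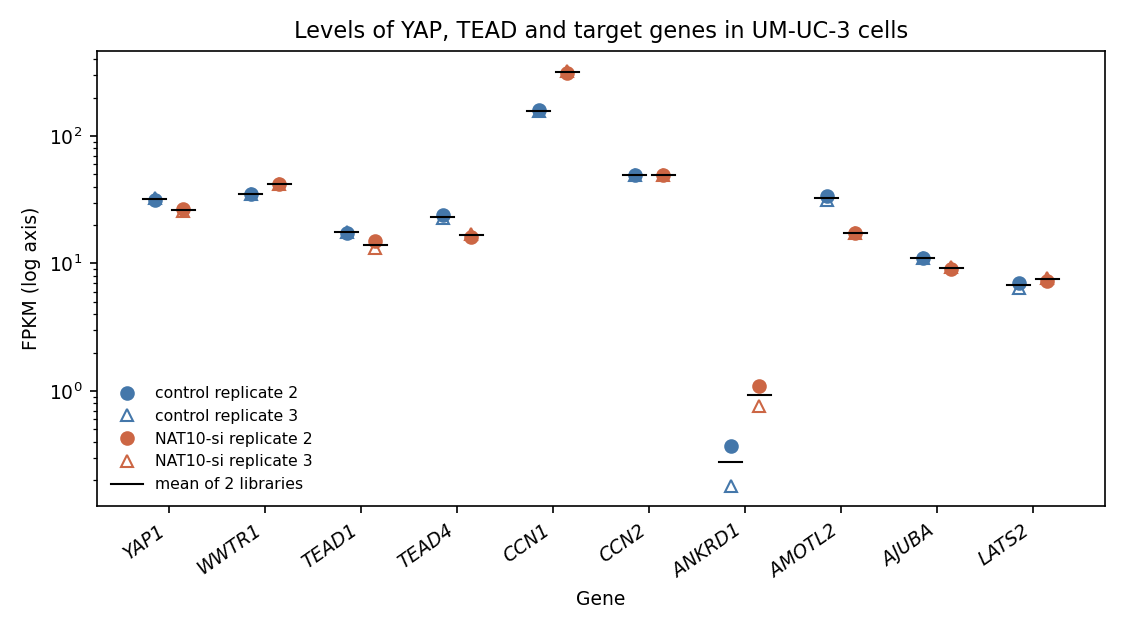
Level of each gene in each library, in FPKM on a log axis, with circles for replicate 2, triangles for replicate 3 and bars for the mean of 2 libraries. CCN1 lies highest, at 158 FPKM in controls and 317 FPKM in NAT10-si, and ANKRD1 lowest, under 1.1 FPKM in every library.

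YAP1 and WWTR1, the coactivators, moved in opposite directions. YAP1 was at 31.3 and 32.8 FPKM in the controls and at 26.9 and 25.9 FPKM after NAT10 siRNA. Both treated libraries lay below both controls, with a log2 change of -0.27 ± 0.05 (SE; limma adjusted p = 0.00648). WWTR1 was at 35.1 and 35.2 FPKM in the controls and at 41.9 and 41.6 FPKM after NAT10 siRNA. Both treated libraries lay above both controls, with a log2 change of 0.24 ± 0.04 (SE; limma adjusted p = 0.00479). WWTR1-AS1, a noncoding gene whose RefSeq span overlaps WWTR1, was at mean levels of 17.8 and 20.5 FPKM, and without stranded counting its reads and those of WWTR1 cannot be told apart, so the WWTR1 change is uncertain. The antisense genes TEAD1-AS1 and CCN2-AS1 also overlap their namesakes and were not analysed here. The ratio of WWTR1 to YAP1 levels was 1.12 and 1.07 in the controls and 1.56 and 1.61 after NAT10 siRNA. The summed level of both coactivators was 67.2 ± 1.11 FPKM (SD, n = 2) in controls and 68.1 ± 0.941 FPKM after NAT10 siRNA, a difference smaller than the spread between replicates.

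TEAD factors bring YAP and TAZ to DNA. TEAD4 was at 23.8 and 22.6 FPKM in the controls and at 16.2 and 16.9 FPKM after NAT10 siRNA. The arms did not overlap, and TEAD4 changed by -0.46 ± 0.05 (log2, SE; limma adjusted p = 0.00137). TEAD1 was at 17.3 and 17.6 FPKM in the controls and at 14.9 and 13.2 FPKM after NAT10 siRNA. It was lower in both treated libraries, with a log2 change of -0.30 ± 0.07 (SE; limma adjusted p = 0.0156). The TEAD1 call was lost without control replicate 2 (limma adjusted p = 0.0617), without control replicate 3 (0.0732) and with no filter on low values (0.0608). No fall was called for the other 2 family members. TEAD2 was at 10.1 FPKM in both arms and did not pass (limma adjusted p = 0.96), and TEAD3, at 3.44 ± 0.245 FPKM in controls, rose to 5.53 ± 0.166 FPKM (limma adjusted p = 0.0020). The 4 TEAD genes together summed to 54.2 ± 0.657 FPKM in controls and 46.2 ± 0.975 FPKM after NAT10 siRNA, a ratio of 0.854.

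CCN1 and CCN2 encode secreted matricellular proteins and are the most widely used reporters of YAP and TEAD activity, and they did not move together. CCN1 was at 159.9 and 156 FPKM in the controls and at 314 and 320.2 FPKM after NAT10 siRNA. Its level was 2.01-fold higher, with a log2 change of 1.00 ± 0.04 (SE; limma adjusted p = 0.000139), ranking 437 among 14004 genes from the largest increase. CCN2 was at 49.8 and 49.1 FPKM in the controls and at 49.4 and 49.6 FPKM after NAT10 siRNA. These arms overlapped, and the log2 change was 0.00 with a 95% interval from -0.09 to 0.10 (limma adjusted p = 0.953). The CCN2 interval thus leaves out a change of the size of CCN1 in either direction. The CCN1 to CCN2 ratio was 3.21 and 3.18 in the controls and 6.35 and 6.45 after NAT10 siRNA. With 2 libraries per arm, the exact two-sided permutation test of each of 5 such ratios gave p = 0.333, the smallest the design allows, and 0.333 after adjustment over the 5.

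**Figure D2:**
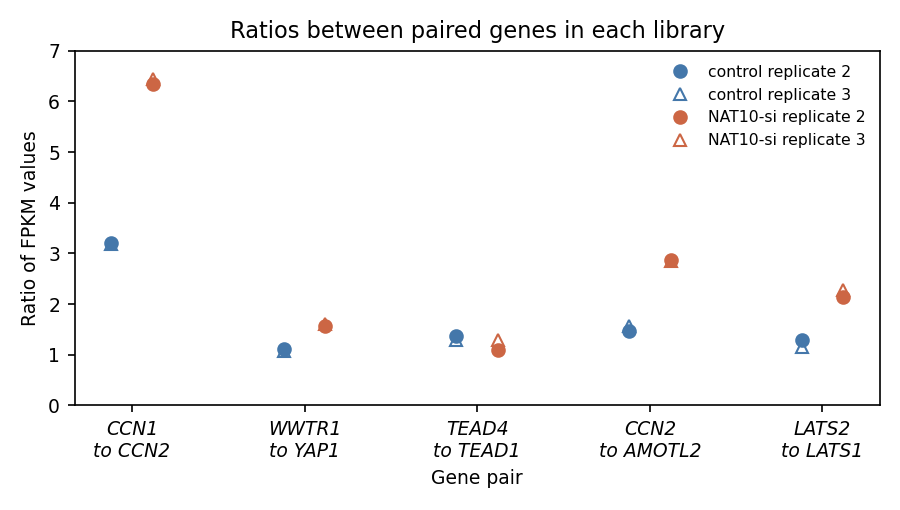
Ratio of FPKM values between 2 genes in each library, for 5 gene pairs, with circles for replicate 2 and triangles for replicate 3. The CCN1 to CCN2 ratio lies at 3.18 to 3.21 in controls and 6.35 to 6.45 in NAT10-si, and WWTR1 to YAP1 at 1.07 to 1.12 and 1.56 to 1.61.

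ANKRD1, a muscle and stress-responsive ankyrin repeat protein and a common YAP reporter, was barely expressed. It was at 0.373 and 0.181 FPKM in the controls and at 1.09 and 0.763 FPKM after NAT10 siRNA, from 27, 7, 41 and 27 recovered reads. Both treated libraries lay above both controls and the ratio of means was 3.35, but the gene lay under the filter of a mean of 1 FPKM and was not tested in the main comparison. With the filter lifted its log2 change was 0.59 and did not pass (limma adjusted p = 0.0713).

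Of the 10 genes, 7 had an entry in the RefSeq promoter table (GRCh38.p14, 300 bases from 250 before to 50 after the start), with 10 starts in all. TEAD1, TEAD4 and CCN1 had none. The TEAD motif GGAATG was searched on both strands and found at 6 of the 10 starts, whereas 14.0% of 35116 promoters held it. These starts belong to 6 of the 7 genes, a count with no background beside it, as some genes have 2 starts. The genes were chosen by name as part of this pathway or its common targets, so the share is not independent of that choice. CCN2 had 3 copies, at -169, -104 and -95 bases from the start, and 0.128% of promoters held 3 or more. ANKRD1 had 2, at -220 and -128, and 1.37% of promoters held 2 or more. YAP1 (-162), LATS2 (9 bases after the start) and 1 of the 2 starts each of AMOTL2 (-69) and AJUBA (-59) had 1 copy. The pattern TGANTCA allows any middle base and is wider than the AP-1 site, TGACTCA or TGAGTCA. Among these 7 genes it was found only in ANKRD1 (-195), against 7.71% of all promoters. That match reads TGATTCA, so it is not the AP-1 site itself. No start held a CArG box, the site of SRF, against 1.29%. A match describes the letters and does not show that a factor bound there. The 250 bases before the start of 3 genes are shown, 5′ to 3′ on the gene's strand with GGAATG in capitals. CCN2 and ANKRD1 are shown for their repeated motif and YAP1 as the coactivator's own gene.

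CCN2 (GRCh38.p14, chr6:131951373-131951622, minus strand): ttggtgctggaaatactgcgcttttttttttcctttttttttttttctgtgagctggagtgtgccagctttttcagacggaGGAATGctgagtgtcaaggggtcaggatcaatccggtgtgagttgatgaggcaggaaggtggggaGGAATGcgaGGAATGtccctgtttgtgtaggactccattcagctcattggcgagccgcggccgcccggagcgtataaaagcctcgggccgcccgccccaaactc
ANKRD1 (GRCh38.p14, chr10:90921088-90921337, minus strand): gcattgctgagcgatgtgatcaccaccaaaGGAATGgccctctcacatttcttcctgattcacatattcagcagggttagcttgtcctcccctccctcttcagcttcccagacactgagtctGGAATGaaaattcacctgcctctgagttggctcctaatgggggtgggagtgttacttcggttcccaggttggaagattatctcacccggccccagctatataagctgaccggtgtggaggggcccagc
YAP1 (GRCh38.p14, chr11:102110197-102110446, plus strand): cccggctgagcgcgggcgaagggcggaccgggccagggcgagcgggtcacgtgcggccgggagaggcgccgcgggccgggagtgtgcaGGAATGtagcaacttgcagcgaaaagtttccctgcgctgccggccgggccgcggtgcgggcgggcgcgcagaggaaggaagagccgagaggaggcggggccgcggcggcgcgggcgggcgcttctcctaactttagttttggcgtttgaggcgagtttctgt

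The 3 motif copies of CCN2 thus stood in the promoter of the reporter whose level stayed within 49.1 and 49.8 FPKM in all 4 libraries. ANKRD1, with 2 copies, had a higher level in both treated libraries, at very low depth. Of the genes with 1 copy, YAP1, AMOTL2 and AJUBA fell and LATS2 did not pass, and WWTR1, with none, rose. CCN1, TEAD1 and TEAD4 had no promoter entry, so whether motif number goes with change was not tested.

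AMOTL2, AJUBA and LATS2 are targets that restrain YAP or act within the pathway. AMOTL2, an angiomotin that binds YAP and holds it in the cytoplasm, was at 33.7 and 31.5 FPKM in the controls and at 17.3 and 17.4 FPKM after NAT10 siRNA. Both treated libraries lay far below the controls (ratio of means 0.532), with a log2 change of -0.87 ± 0.05 (SE; limma adjusted p = 0.000278), ranking 360 from the largest decrease. The angiomotins together (AMOT, AMOTL1, AMOTL2) summed to 43.0 ± 1.84 FPKM in controls and 26.2 ± 0.492 FPKM after NAT10 siRNA. AJUBA, a LIM protein that inhibits LATS, was at 11.0 and 11.1 FPKM in the controls and at 9.01 and 9.32 FPKM after NAT10 siRNA. It was lower in both treated libraries (log2 change -0.24, limma adjusted p = 0.0101), and the call was lost without control replicate 2 (limma adjusted p = 0.0516) or 3 (0.0566). LIMD1, a related LIM protein, was at 7.41 ± 0.00237 FPKM in controls and rose to 9.48 ± 0.202 FPKM (limma adjusted p = 0.0045), and AJUBA, LIMD1 and WTIP together stood at 20.1 and 19.9 FPKM. LATS2, a kinase that phosphorylates YAP, was at 7.01 and 6.45 FPKM in the controls and at 7.32 and 7.73 FPKM after NAT10 siRNA. The arms did not overlap, as for 80.4% of all genes tested, but the log2 change of 0.14 (95% interval -0.02 to 0.30) did not pass (limma adjusted p = 0.113), whereas it did with voom on recovered reads (0.0328). Its paralogue LATS1 fell from 5.49 ± 0.0863 to 3.41 ± 0.00352 FPKM (limma adjusted p = 0.0012), so that the LATS2 to LATS1 ratio was 1.29 and 1.16 in controls and 2.14 and 2.27 after NAT10 siRNA.

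Within each arm the order of levels was nearly the same. In controls it ran from CCN1 through CCN2, WWTR1, AMOTL2, YAP1, TEAD4, TEAD1, AJUBA and LATS2 to ANKRD1, and only the neighbours AMOTL2 and YAP1 had overlapping replicate ranges. After NAT10 siRNA YAP1 stood above AMOTL2, and no neighbours overlapped. The genes nearest to YAP1 over the 4 libraries, by Euclidean distance of log2(FPKM + 1), were RUVBL1 (0.0641), SNRPF (0.0726) and METAP2 (0.0798). Those nearest to CCN1 were TM4SF1 (0.181), CLIC4 (0.279) and HLA-C (0.347, uncertain because near-identical HLA genes share reads). Those nearest to CCN2 were ZMAT2 (0.0492), EMD (0.0715) and SRSF9 (0.0874).

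Upstream of YAP, more genes fell than rose. Of 16 Hippo kinases and scaffolds, all tested, 8 fell, 2 rose and 6 did not pass, against 27.9% of all genes in each direction, with a median log2 change of -0.17. TAOK2, a kinase that activates MST and LATS kinases, was at 8.17 and 8.21 FPKM in controls and at 3.03 and 3.20 FPKM after NAT10 siRNA (limma adjusted p = 0.000212). TAOK1, MOB1A, LATS1 and SCRIB, a polarity scaffold, fell by log2 values of 0.61, 0.53, 0.56 and 0.49. The 2 that rose were STK4 (0.31) and RASSF1 (0.45), a regulator of MST kinases. With voom on recovered reads 4 rose and 9 fell. That fit called more of all genes tested, 4637 higher and 4185 lower, against 3904 and 3911 in the main fit.

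Of 12 partners and inhibitors of YAP and TEAD 9 were tested, 3 rose, 3 fell and 3 did not pass, with a median log2 change of 0.00. These counts lie near the 27.9% of all genes called in each direction and say nothing particular about the list. VGLL4, which competes with YAP for TEAD, was at 7.59 and 7.54 FPKM in controls and at 13.6 and 14.1 FPKM after NAT10 siRNA (limma adjusted p = 0.000323). PTPN14, a phosphatase that binds YAP and is itself a target, fell from 8.59 ± 0.292 to 5.18 ± 0.207 FPKM (limma adjusted p = 0.00084). YWHAZ, a 14-3-3 protein that retains phosphorylated YAP, fell by a log2 value of 0.39.

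A further 17 genes of a published YAP and TEAD target signature, which did not include the genes above except PTPN14, were also examined. Of 14 tested, 5 rose, 5 fell and 4 did not pass, with a median log2 change of -0.03, again near the 27.9% of all genes in each direction. GADD45A, a growth arrest gene also induced by stress, rose from 50.4 ± 0.971 to 154 ± 7.70 FPKM (limma adjusted p = 0.000111). AXL, a receptor tyrosine kinase, was at 149 and 144 FPKM in controls and at 67.5 and 69.9 FPKM after NAT10 siRNA (limma adjusted p = 0.000142). NT5E, an ectonucleotidase, rose by a log2 value of 0.43, and ASAP1, a regulator of Arf GTPases, fell by 0.49. MYOF and IGFBP3 had log2 changes of -0.00 and -0.06 and did not pass. The count of 5 that rose was 3 with no filter on low values, with a filter of 3 FPKM, without control replicate 3 or without NAT10-si replicate 2.

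SRF and its MRTF coactivators respond to actin and share targets with YAP, CCN1 and CCN2 among them. Of 13 such genes 11 were tested, 3 rose, 3 fell and 5 did not pass (median log2 change -0.01), about the share of all genes called (27.9% in each direction). ACTA2, smooth muscle actin, rose from 1.92 ± 0.0958 to 5.36 ± 0.0241 FPKM and TPM1, a tropomyosin, from 16.6 ± 0.206 to 26.3 ± 0.776 FPKM. ACTB, cytoplasmic actin, fell from 812 ± 10.6 to 498 ± 16.9 FPKM, uncertain because actin genes have near-identical copies. MRTFA fell by a log2 value of 0.40 (limma adjusted p = 0.00776), a call lost without control replicate 2 (0.0568). FHL2 passed narrowly (log2 change 0.14, limma adjusted p = 0.0426) and lost its call when any single library was left out (limma adjusted p between 0.0964 and 0.161). SRF had a log2 change of -0.01.

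**Figure D3:**
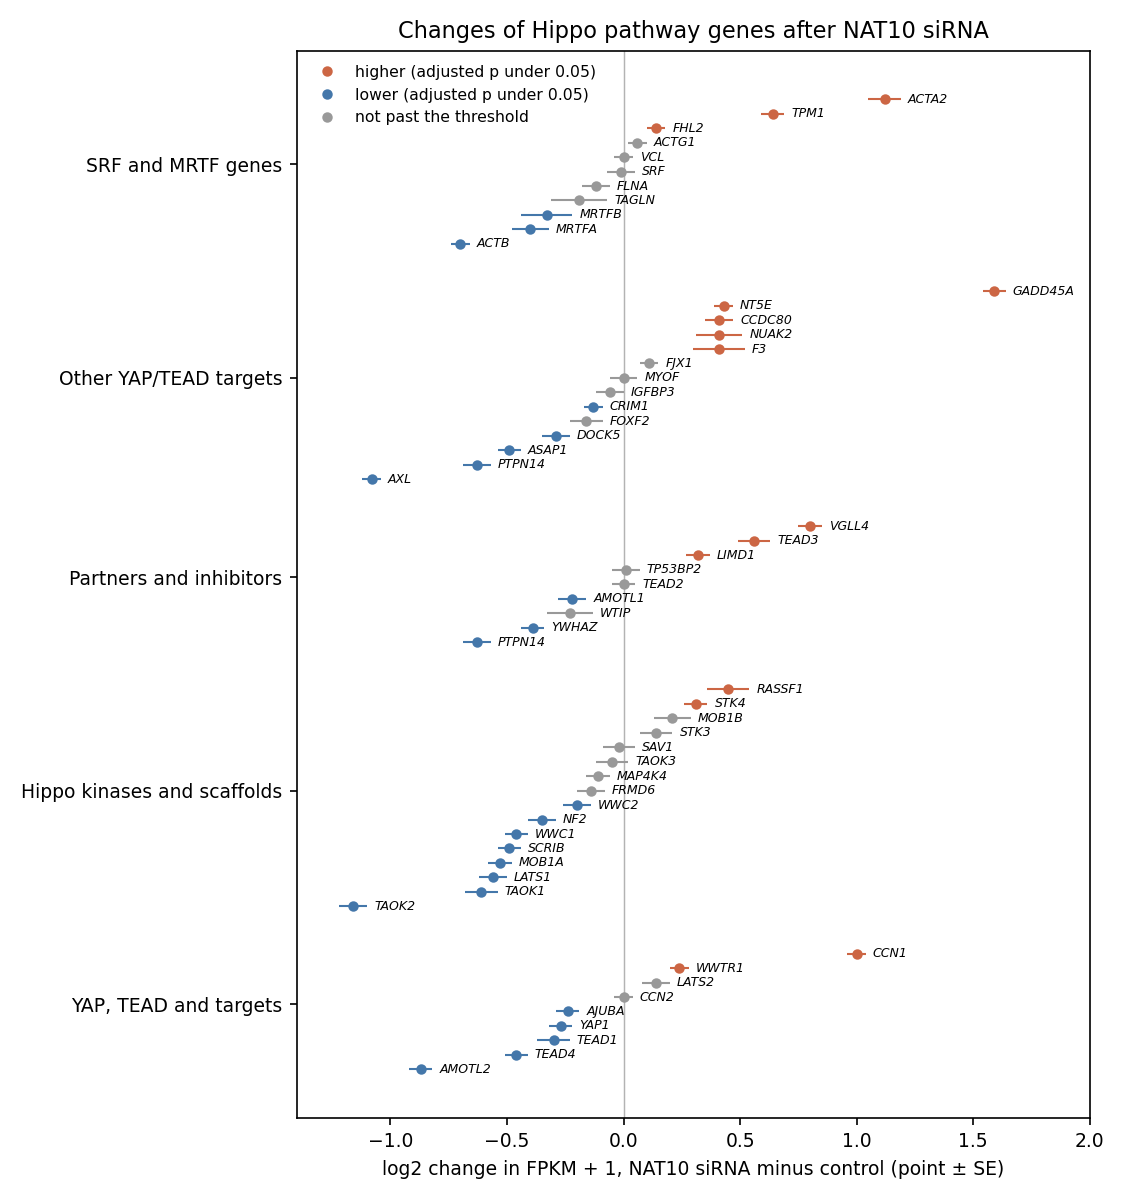
Change of each tested gene as the log2 difference of FPKM + 1, NAT10 siRNA minus control, with bars for the standard error, orange for higher, blue for lower and grey for not past the threshold. The genes of every list spread to both sides of 0, from TAOK2 at -1.16 to GADD45A at 1.59.

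The acRIP lists were searched for the same 10 genes. Each list gives peaks with a fold enrichment, taken here to be immunoprecipitate over input. The folds are the authors' values and describe a peak within its own list. In the first round YAP1 alone had a peak in the control list, at chr11:102186059-102186269 (plus strand, fold 82.4, against a list median of 44.3). This is 1 of 10 genes, where 3.03% of all genes tested had a peak, and the first-round NAT10-si list held none of the 10, where 3.48% had one. In the replicate round 7 of 10 genes had a peak in the control list, against 49.6%, and 8 of 10 in the NAT10-si list, against 64.5%. All these shares are of the genes tested, which leave out ANKRD1, whereas the counts include it. ANKRD1 had a peak in both replicate lists. The replicate lists held 10253 and 16753 peaks, so the longer list belonged to the treated arm. With both cut to equal length 7 and 6 of the 10 genes had a peak. The share of all genes with a peak at that length was not computed, so these counts have no background beside them.

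CCN1, WWTR1 and ANKRD1 had overlapping peaks in the control and NAT10-si lists of the replicate round. The CCN1 peak was chr1:85583543-85583693 (plus strand, 151 bases, fold 7.99) in the control list and chr1:85583154-85583842 (689 bases, fold 45.2) in the NAT10-si list. In the NAT10-si list 87.5% of peaks had a lower fold, and in the control list 16.5%. WWTR1 had a peak at chr3:149520618-149520797 (minus strand, fold 12.7) in the control list and at chr3:149520648-149520827 (fold 4.68) in the NAT10-si list, which held 2 more WWTR1 peaks, 1 of them with a false discovery rate over 0.05. ANKRD1 had a peak at chr10:90912216-90912396 (minus strand, fold 24.1) and at chr10:90912246-90912426 (fold 5.46), although its RNA gave at most 41 recovered reads in an RNA-seq library. In the control list 30.5% of peaks had a lower fold than the WWTR1 peak and 44.4% than the ANKRD1 peak. In the NAT10-si list these shares were 11.1% for the overlapping WWTR1 peak and 14.7% for the ANKRD1 peak. The median fold was 24.1 in the replicate control list and 14.0 in the replicate NAT10-si list. Above these medians lay 2 of 7 control and 2 of 12 NAT10-si peaks of the 10 genes.

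CCN2 and LATS2 had a peak in the replicate control list alone. The CCN2 peak, chr6:131948176-131948446 (minus strand), had a fold of 108, and 89.4% of that list's peaks had a lower one. The LATS2 peak, chr13:20973032-20973182 (minus strand), had a fold of 48.1. CCN2 therefore differed between the arms in its peak calls while its mean RNA level differed by less than the replicate spread. How many of all genes had a peak in the replicate control list alone was not computed. Whether such a difference sets CCN2 or LATS2 apart from other genes was thus not tested.

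YAP1, TEAD4 and AJUBA had peaks in the replicate NAT10-si list alone. This was the longer list, and how many of all genes had a peak in it alone was not computed, so these calls have no background beside them. YAP1 had peaks at chr11:102231714-102232014 (fold 3.12) and chr11:102232554-102232734 (fold 12.6), neither of which overlapped its first-round control peak. TEAD4 had a peak of 2 blocks at chr12:3040180-3040673 (plus strand, fold 6.38), and AJUBA one at chr14:22972071-22972489 (minus strand, fold 15.8) and another with a false discovery rate over 0.05. TEAD1 and AMOTL2 had a peak in both arms at different places. For TEAD1 these were chr11:12943254-12943554 (plus strand, fold 6.02) in the control list and chr11:12944363-12944483 (fold 5.26) in the NAT10-si list. For AMOTL2 the control peak was chr3:134355874-134355994 (minus strand, fold 24.1, false discovery rate over 0.05) near the end of the gene, and the NAT10-si peak chr3:134375240-134375479 (fold 10.5) at its start.

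In all, 3 of 7 control peaks of these genes overlapped a NAT10-si peak by at least 1 base on the same strand, where 73.9% of the whole replicate control list did. With 1 list per arm and round none of these differences has a test. All 20 peaks overlapped the span of their gene in RefSeq GRCh38.p14, as did between 97.3% and 98.2% of the peaks of each list whose gene has a RefSeq entry, although the processing notes name hg19. Of the 19 replicate-round peaks, 16 had their middle past 80% of the gene's length, counted from its start, where 79.2% of peaks in the control list and 72.2% in the NAT10-si list did. Exons and UTRs were not annotated here, and the bases under the peaks are not shown because no genome of the build was used.

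**Figure D4:**
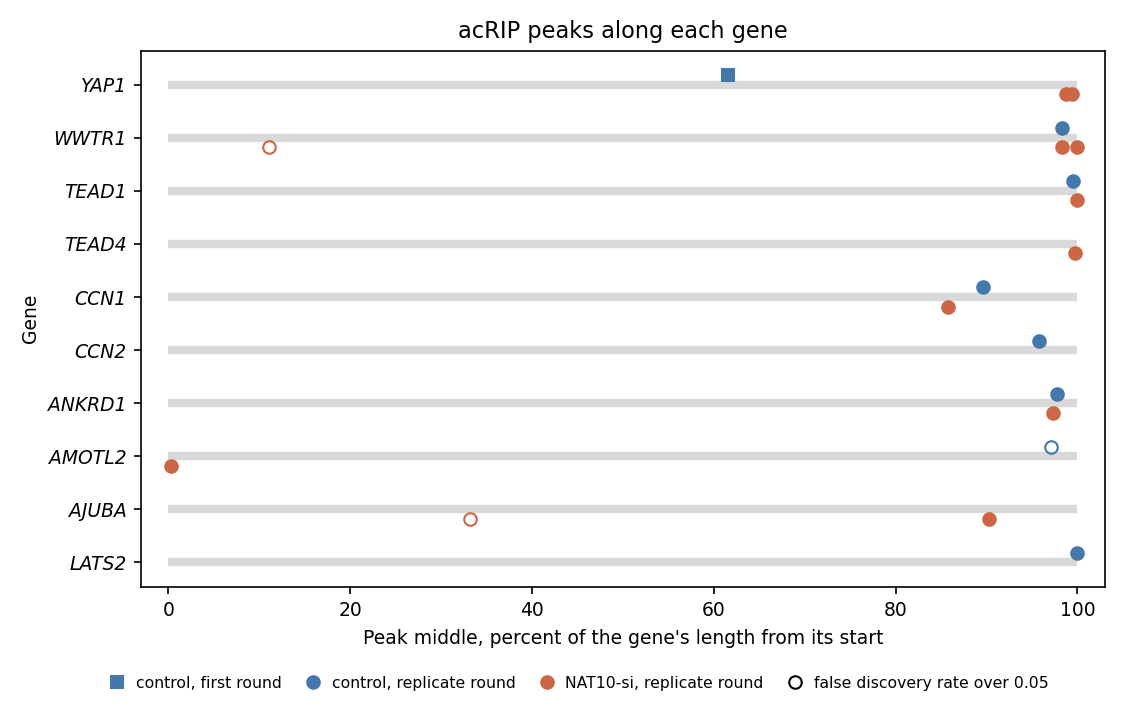
Middle of each acRIP peak as a percent of the gene's length from its start, with blue for control, orange for NAT10-si, squares for the first round, circles for the replicate round and open symbols for a false discovery rate over 0.05. Most replicate-round peaks lie past 80% of the gene, and the YAP1 peak of the first round lies at 61.6%.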

How the data were processed

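RNA-seq and acRIP data of UM-UC-3 were used, 2 libraries and 2 peak lists per arm. For the first-round lists, only the list name tells arm and round. HISAT2 2.1.0, HTSeq 0.6.1, bcl2fastq 2.19.1 and hg19 are listed in the submitters' processing notes; roles, the peak caller and strand use are not given in the sources used here. The deposited table names no unit. The deposited values were taken to be FPKM, since the columns summed to between 310508 and 319225 and steps depended on the gene. The deposited peak lists hold, per the file headers, a p-value, a fold (ratio) over input and 2 log10 scores (false discovery rate, p) for each peak.

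Values of 27567 of 27571 genes above 0 in at least 2 libraries were whole multiples of 1 read per gene and library, within rounding and a relative tolerance of 2e-10; a factor common to a gene is lost, so reads may be more. As the table does not hold raw counts, the test planned for counts was not used. limma-trend (limma 3.58.1, R 4.3.3) was fitted to log2(FPKM + 1) in the 14004 genes averaging 1 FPKM or more, Benjamini-Hochberg threshold 0.05; this understates changes of low genes. It was tested on simulated data. Nothing in the labels says that libraries came from separate cultures, so p-values reflect only how these libraries spread, possibly for technical reasons.

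The 10 genes and all lists were chosen with earlier results of these data known; the gene pairs set in ratio and the family sums were chosen after values were seen. Named genes were NAT10, the 10 genes, up to 5 per list by p, the 3 nearest genes to YAP1, CCN1 and CCN2, and marker genes where their list is described (which of these to name was decided after their values were seen); other genes named for their role (TEAD2, STK4, RASSF1, MYOF, IGFBP3, SRF) or for overlap (WWTR1-AS1, TEAD1-AS1, CCN2-AS1) were added after their values were seen. Gene symbols came from the supplied identifier table, and promoters from RefSeq. Alternatives covered the pseudocount, filter, scaling, replicate block, each library left out, voom on recovered reads and limma without a trend, and for peaks a stricter false discovery rate, equal list lengths and reciprocal overlap.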

Additional observations from a re-analysis of the deposited data

How the results depend on the processing

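The directions of the 7 called genes of the YAP and TEAD set held under every alternative, and the 2 that rose (WWTR1, CCN1) and YAP1, TEAD4 and AMOTL2 passed under all of them. The 5 that fell numbered 3 without control replicate 2 or control replicate 3, when TEAD1 and AJUBA lost their calls (range over single libraries left out: 3 to 5). The Hippo kinases and scaffolds that rose numbered 4 with voom on recovered reads, where 4637 of all genes rose, against 3904 in the main fit. The further YAP and TEAD targets that rose numbered 3 with no filter on low values and 3 when genes had to average 3 FPKM, and 3 to 4 with a library left out. The SRF and MRTF genes that fell numbered 1 to 2 with a library left out, against 3. The sign turned only for genes near 0 that were not called: CCN2 was at -0.04 with median-ratio scaling and -0.01 without control replicate 3, ZMAT2 at -0.03 with median-ratio scaling and -0.01 without control replicate 2, EMD at 0.02 without control replicate 2 and 0.00 with voom, and SRSF9 at 0.03 without NAT10-si replicate 2 and 0.00 with voom. With single libraries left out the log2 change ran from -0.01 to 0.01 for CCN2, -0.01 to 0.04 for ZMAT2, -0.05 to 0.02 for EMD and -0.06 to 0.03 for SRSF9. Apart from fewer libraries or genes in a fit, the cause was not tested.

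With the replicate number as a block, 3664 genes rose and 3630 fell, against 3904 and 3911, and the set still had 2 higher and 5 lower; FHL2 lost its call (limma adjusted p = 0.0711). Same-numbered libraries did not deviate together (correlation of deviations 0.0125), and with 2 pairs they share only a number. At a false discovery rate of 0.01 the genes with a peak numbered 1, 5, 0 and 7 in the first control, replicate control, first NAT10-si and replicate NAT10-si lists. The share of all genes at that rate was not computed, so these counts cannot be set against a background. Depth limits ANKRD1, with 7 recovered reads in control replicate 3.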
